A study of Mus musculus with 12 samples.

Results

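The insulin-like growth factor (IGF) system of granulosa cells, which line the ovarian follicle and nurse its oocyte, was followed through 10 genes: the ligand genes Igf1 and Igf2, the receptor gene Igf1r, the binding protein genes Igfbp1 to Igfbp6, and the protease gene Pappa. All probe sets that the array annotation assigns to one of these genes and to no other were taken, for 10 of the 18193 genes so annotated. They number 27 of the 45101 probe sets on the array, with 4 for Igf1, 2 for Igf2, 5 for Igf1r, 1 each for Igfbp1, Igfbp2 and Igfbp6, 2 each for Igfbp3 and Igfbp5, 6 for Igfbp4 and 3 for Pappa. Probe sets of 1 gene were read on the same arrays and are not replicates of each other.

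Cells came from Inha-/- mice, in which the inhibin alpha subunit gene is deleted, and from wild-type mice, all of strain C57BL/6J;129S5/SvEvBrd. The 4 groups were the knockout after pregnant mare serum gonadotropin (PMSG) and human chorionic gonadotropin (hCG), wild type after PMSG and hCG, the knockout after PMSG alone, and wild type after PMSG alone. Every animal was 21 days old and received 5 IU of PMSG, which acts like follicle-stimulating hormone, for 44 to 46 h; the hCG groups then received 5 IU of hCG, which acts like luteinizing hormone, for 6 h. Cells were released by puncturing antral follicles, and RNA of 3 independent samples a group was hybridised to 1 Affymetrix array each, 12 arrays in all. The labels do not say how many animals went into a sample, and they name no tissue or promoter to which the deletion is limited.

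IGF1 and IGF2 are secreted peptides that act through the receptor tyrosine kinase IGF1R, whose signal passes through insulin receptor substrates to phosphatidylinositol 3-kinase and AKT. In tissue fluid most of the ligand is held by IGF-binding proteins, which can carry it or keep it from the receptor. PAPP-A, the product of Pappa, is a metalloprotease that cleaves IGFBP4 and so frees the ligand. In the mouse ovary Igf1 is made by granulosa cells of growing follicles, IGF1 adds to the action of follicle-stimulating hormone, and mice without Igf1 do not ovulate.

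The deposited log2 values of a probe set have a median of 0 across the 12 arrays. A value is therefore a difference from that gene's middle array and no level, and values of different genes cannot be set against each other. Differences between groups were tested with limma over 45037 probe sets that are not controls, and a probe set was called at a Benjamini-Hochberg adjusted p under 0.05. For each gene the most variable probe set (largest SD across arrays) is given on every array.

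The deleted gene checked the labels: Inha lay between -7.40 and -5.40 on the knockout arrays and between 5.40 and 5.87 on the wild-type arrays. Across probe sets, replicate arrays correlated with r of 0.37 to 0.71 in the knockout after hCG, 0.67 to 0.82 in wild type after hCG, 0.23 to 0.33 in the knockout after PMSG and 0.48 to 0.71 in wild type after PMSG. The array names carry serial numbers whose meaning the labels do not give. 7 arrays have early numbers (1 knockout and 1 wild type after hCG, 2 knockout and 3 wild type after PMSG), and 5 have late ones (2, 2, 1 and 0 in the same order). Marker genes of some other ovarian cells differed between the genotypes, on the most variable probe set of each. Over all genes, 12.6% of such probe sets were called between genotypes after hCG and 2.96% after PMSG. Of 12 theca and stroma markers, 7 were higher in the knockout after hCG and 5 after PMSG, and of 10 oocyte markers 7 and 1 were higher. Of 8 surface epithelium markers, 4 were lower in the knockout in both comparisons. Of 8 endothelium, 8 measured leukocyte and 5 measured red blood cell markers, 0 were called in either comparison. The median of the theca and stroma markers lay between 0.28 and 2.02 on the knockout arrays after hCG and between -1.20 and -0.50 on the wild-type arrays, and between 0.50 and 1.65 on the knockout arrays after PMSG and between -0.71 and -0.61 on the wild-type arrays. Of 9 measured granulosa markers, 3 were higher in the knockout after hCG, and 0 were called after PMSG. Centred values cannot show that a marker is absent. The samples are bulk RNA, so that a different number of cells of a type and a different amount of RNA per cell cannot be told apart.

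Of the 27 probe sets, 15 were called in at least 1 of the 5 contrasts, interaction included, and 12 in none (15.2% of all probe sets were called in at least 1). The 15 belong to 7 genes, while Igf2, Igf1r and Igfbp6 had no called probe set. The comparison of genotypes asks what loss of inhibin alpha changes in these cells, before and after the ovulatory stimulus. After hCG, 10 probe sets were higher in the knockout, 0 lower and 17 not called (37% called, against 10.1% of all probe sets, 5.13% higher and 4.95% lower), and these belong to Igf1, Igfbp2 and Igfbp4. After PMSG alone, 7 were higher, 2 lower and 18 not called (33.3% called, against 2.26% of all probe sets, 1.04% higher and 1.22% lower), and these belong to Igfbp1, Igfbp4 and Igfbp5. 6 of the called probe sets in each comparison are those of Igfbp4. On the most variable probe set of each gene, 3 were higher, 0 lower and 7 not called after hCG (12.6% of all genes called). After PMSG alone 2 were higher, 1 lower and 7 not called on these (2.96% of all genes called). The arrays of the genotypes did not overlap for 14 of the 27 probe sets after hCG (23.6% of all probe sets) and for 14 after PMSG (15.9%). The median difference of the 27 was 0.54 after hCG and 0.57 after PMSG on the log2 scale, against -0.0016 and 0.041 over all probe sets.

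**Figure D1:**
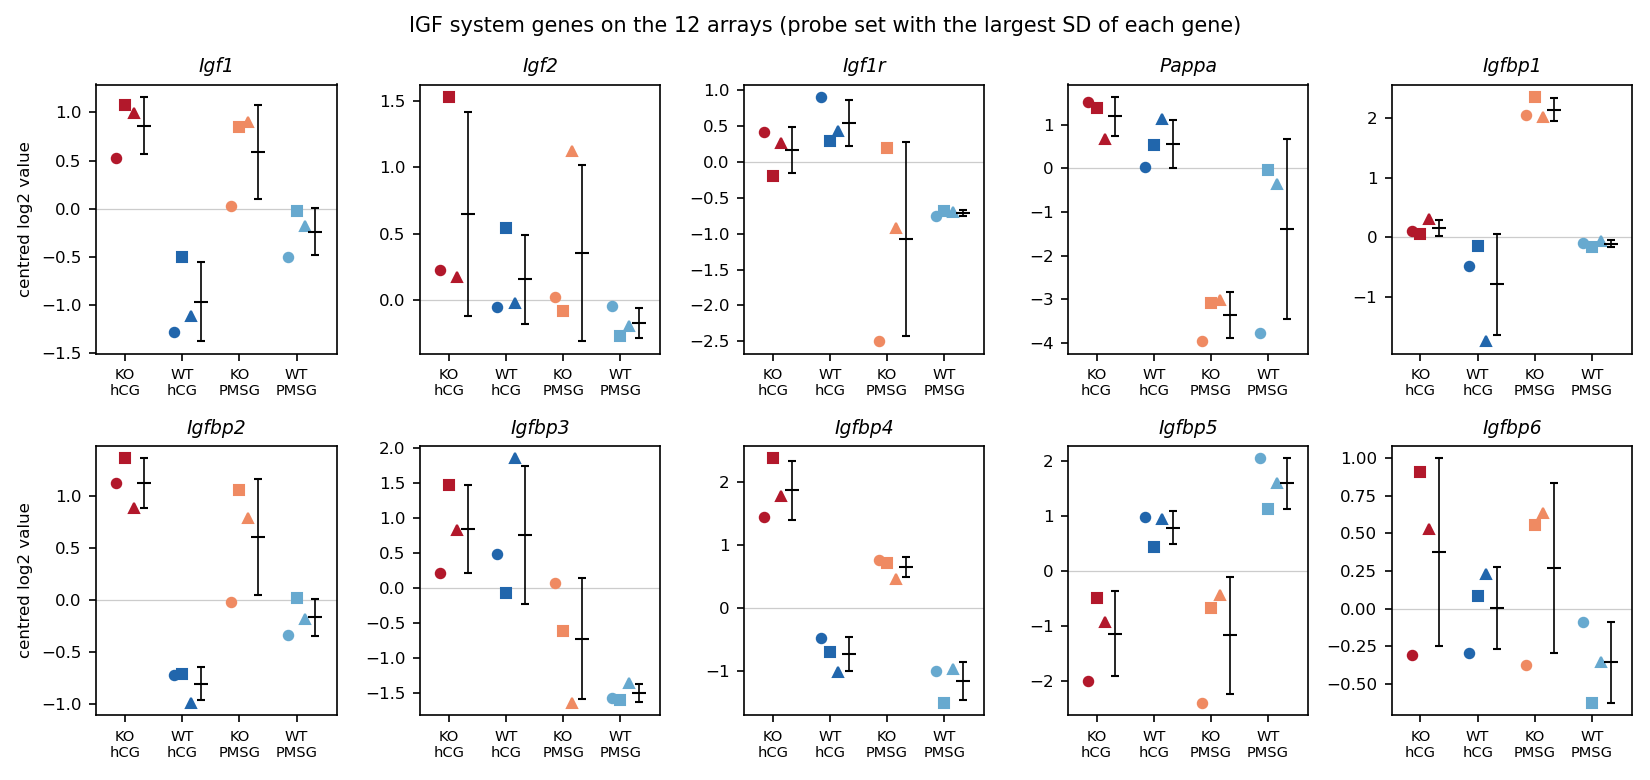
Centred log2 value (y axis) of the 10 IGF system genes on each of the 12 arrays by group (x axis: knockout and wild type after hCG, knockout and wild type after PMSG). Circles, squares and triangles are replicates 1, 2 and 3, and the black bar is the group mean ± SD. Igfbp4 is above 0 on the 6 knockout arrays and below 0 on the 6 wild-type arrays, and Igfbp1 is at 2.02 to 2.36 on the 3 knockout arrays after PMSG alone.

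Igf1, the ligand that granulosa cells make, was higher in the knockout after hCG. Its values (1437401_at) were 0.52, 1.07 and 0.998 in the knockout after hCG, -1.28, -0.50 and -1.12 in wild type after hCG, 0.03, 0.84 and 0.90 in the knockout after PMSG, and -0.51, -0.03 and -0.19 in wild type after PMSG. Every knockout array lay above every wild-type array. After hCG the difference was 1.83 ± 0.285 on the log2 scale (SE, n = 3 each, 3.57-fold, adjusted p = 0.00382). It was 1.81 between the arrays with early serial numbers (1 against 1) and 1.85 between the late ones (2 against 2). After PMSG alone the difference of 0.83 was not called (adjusted p = 0.221).

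Of the other 3 Igf1 probe sets, 1434413_at and 1419519_at were called after hCG, at 1.66 and 1.40, and 1452014_a_at was not, at 1.04 (adjusted p = 0.0653). The same 2 fell with hCG in wild type, by 1.22 ± 0.235 (SE, adjusted p = 0.0117) and by 1.02 ± 0.221 (SE, adjusted p = 0.0197) on the log2 scale. The probe set given on every array was at -0.73 (adjusted p = 0.171) and 1452014_a_at at -0.24 (adjusted p = 0.946), neither called. The fall was thus called on 2 of the 4 probe sets. These calls were lost under 5 and 8 of 22 alternatives. Both were lost after quantile normalization (-0.88 and -0.69), with the number in the array names as a random block (-1.33 and -1.05, adjusted p = 0.0583 and 0.0773), and without replicate 3 of wild type after hCG (-1.09 and -0.95). The call of 1419519_at was also lost without replicate 1 of wild type after hCG, or without replicate 1 or 3 of wild type after PMSG. Of the 9 granulosa markers, 7 also fell with hCG in wild type, and their part in the fall of Igf1 was not tested. With hCG in the knockout the 4 probe sets lay between -0.27 and 0.27, and none was called.

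Igf2, the other ligand, which is imprinted and abundant in the embryo, was not called. Its values (1448152_at) were 0.23, 1.53 and 0.17 in the knockout after hCG, -0.05, 0.54 and -0.02 in wild type after hCG, 0.02, -0.08 and 1.12 in the knockout after PMSG, and -0.05, -0.27 and -0.20 in wild type after PMSG. Replicate 2 of the knockout after hCG and replicate 3 of the knockout after PMSG stood above the other arrays of their groups, and the groups overlapped in the 4 comparisons. The differences were 0.49 after hCG (adjusted p = 0.721) and 0.53 after PMSG (adjusted p = 0.705) between the genotypes. The second probe set of Igf2 (1415931_at) hardly varied, with group means between -0.013 and 0.053.

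Igf1r encodes the receptor through which both ligands signal, and none of its 5 probe sets was called. The values of 1446303_at were 0.42, -0.19 and 0.27 in the knockout after hCG, 0.91, 0.29 and 0.43 in wild type after hCG, -2.50, 0.19 and -0.92 in the knockout after PMSG, and -0.76, -0.68 and -0.70 in wild type after PMSG. The knockout arrays after PMSG spread widely, with replicate 1 far below the others. The genotypes overlapped, and the 95% interval of their difference ran from -1.60 to 0.84 after hCG and from -1.59 to 0.85 after PMSG, so that differences of more than 2-fold remain within it in one direction. With hCG the probe set stood 1.24 higher in the knockout (adjusted p = 0.602) and 1.25 higher in wild type (adjusted p = 0.227). All 5 probe sets had positive values for the hCG response, from 0.44 to 1.24 in the knockout and from 0.11 to 1.25 in wild type.

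Igfbp4 encodes a binding protein that PAPP-A cleaves, and the gene was higher in the knockout in both comparisons on all 6 of its probe sets. The values of 1421991_a_at were 1.45, 2.38 and 1.78 in the knockout after hCG, -0.47, -0.69 and -1.01 in wild type after hCG, 0.76, 0.73 and 0.47 in the knockout after PMSG, and -0.996, -1.50 and -0.97 in wild type after PMSG. The 6 knockout arrays lay above the 6 wild-type arrays. The genotype difference was 2.59 ± 0.246 (SE, n = 3 each, 6.03-fold, adjusted p = 0.000381) after hCG and 1.81 ± 0.246 (3.50-fold, adjusted p = 0.00778) after PMSG.

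Over the 6 Igfbp4 probe sets the genotype difference ran from 1.82 to 2.59 after hCG and from 1.81 to 2.28 after PMSG, with no overlap of arrays in any. After hCG it was 1.92 between the early arrays (1 against 1) and 2.93 between the late ones (2 against 2) for 1421991_a_at. After PMSG it was 1.76 and 2.23 within the 2 pairs of arrays that share a further number in their names, replicate 1 of both genotypes and replicate 2 of both. Replicates 2 and 3 of wild type after hCG also share such a number. The theca and stroma and oocyte markers named above moved in the same direction in both comparisons, and their part in the Igfbp4 difference, or in those of the other members, was not tested. The order of group means for 1421991_a_at was knockout after hCG (1.87 ± 0.47, SD), knockout after PMSG (0.65 ± 0.16), wild type after hCG (-0.72 ± 0.27) and wild type after PMSG (-1.16 ± 0.30). Its hCG response was 1.22 in the knockout (adjusted p = 0.0632) and 0.43 in wild type (adjusted p = 0.419), neither called. The other Igfbp4 probe sets gave 0.50 to 0.70 in the knockout and 0.59 to 0.87 in wild type, none called. On each of these the hCG arrays lay above the arrays with PMSG alone in both genotypes, while 1421991_a_at overlapped in wild type.

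Igfbp5, a binding protein that attaches to extracellular matrix, was lower in the knockout after PMSG on both of its probe sets. The values of 1452114_s_at were -2.01, -0.49 and -0.92 in the knockout after hCG, 0.98, 0.44 and 0.94 in wild type after hCG, -2.40, -0.68 and -0.44 in the knockout after PMSG, and 2.05, 1.13 and 1.60 in wild type after PMSG. Replicate 1 was the lowest array of the knockout in both treatments. After PMSG the difference was -2.77 ± 0.546 (SE, n = 3 each, 6.81-fold lower, adjusted p = 0.0347), a call lost under 11 of the 23 alternatives, and after hCG it was -1.93 and not called (adjusted p = 0.0574). Within the 2 pairs of PMSG arrays that share a number in their names it was -4.46 and -1.81.

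The second Igfbp5 probe set, 1422313_a_at, had -0.25, -0.60 and -0.13 in the knockout after hCG, 0.72, -0.13 and 0.15 in wild type after hCG, -0.58, 0.13 and -0.16 in the knockout after PMSG, and 2.02, 1.91 and 2.54 in wild type after PMSG. The 3 wild-type arrays after PMSG alone stood above the other 9. The knockout was 5.13-fold lower after PMSG (-2.36 ± 0.267, SE, adjusted p = 0.0033). After hCG the genotypes overlapped on this probe set, at -0.57 and not called (adjusted p = 0.279). Wild type fell by 1.91 ± 0.267 with hCG (SE, 3.77-fold, adjusted p = 0.00252), and the knockout was at -0.13 with hCG and not called. The difference of these responses was 1.79 ± 0.378 (SE) and not called (adjusted p = 0.0813). It was called on the upper 60% of probe sets by SD (adjusted p = 0.039) and without replicate 1 of wild type after hCG (2.03, adjusted p = 0.0407). The 2 probe sets correlated with r = 0.797 over the 12 arrays, and 1452114_s_at was at -0.81 with hCG in wild type (adjusted p = 0.548), so the fall with hCG in wild type rests on 1 of the 2.

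Igfbp1, a binding protein gene that insulin represses in liver, was higher in the knockout after PMSG alone. Its single probe set (1418918_at) had 0.10, 0.05 and 0.31 in the knockout after hCG, -0.48, -0.15 and -1.74 in wild type after hCG, 2.05, 2.36 and 2.02 in the knockout after PMSG, and -0.10, -0.16 and -0.05 in wild type after PMSG. The 3 knockout arrays after PMSG stood above the other 9, and replicate 3 of wild type after hCG stood below its group. The genotype difference after PMSG was 2.24 ± 0.333 (SE, n = 3 each, 4.74-fold, adjusted p = 0.0107), with 2.15 and 2.52 within the 2 pairs of arrays. It stayed called under each of the 23 alternatives run. After hCG the genotype difference was 0.94 and not called (adjusted p = 0.126).

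With hCG, Igfbp1 fell in the knockout by 1.99 ± 0.333 on the log2 scale (SE, 3.96-fold, adjusted p = 0.0254), a call lost under 12 of the 23 alternatives. In wild type the value was -0.68 and not called (adjusted p = 0.308). The difference of the responses was -1.30 and not called (adjusted p = 0.369). It was -2.25 and called after quantile normalization (adjusted p = 0.0273), and -1.78 and called without replicate 3 of wild type after hCG (adjusted p = 0.00428).

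Igfbp2, whose product binds both ligands, was higher in the knockout after hCG. Its single probe set (1454159_a_at) had 1.13, 1.36 and 0.89 in the knockout after hCG, -0.72, -0.71 and -0.99 in wild type after hCG, -0.02, 1.05 and 0.78 in the knockout after PMSG, and -0.34, 0.02 and -0.18 in wild type after PMSG. The genotypes were well apart after hCG and overlapped after PMSG through replicate 1 of the knockout. The difference was 1.93 ± 0.249 (SE, n = 3 each, 3.81-fold, adjusted p = 0.0016) after hCG and 0.77 (adjusted p = 0.187) after PMSG. It was 1.85 between the early and 1.97 between the late arrays after hCG. With hCG the value was 0.52 for the knockout and -0.64 for wild type, neither called, and the difference of these responses was 1.16 (adjusted p = 0.249).

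Igfbp3, the main carrier of IGF in blood, rose with hCG in wild type on 1 of its 2 probe sets. The values of 1423062_at were 0.21, 1.48 and 0.83 in the knockout after hCG, 0.49, -0.07 and 1.86 in wild type after hCG, 0.07, -0.61 and -1.65 in the knockout after PMSG, and -1.57, -1.60 and -1.36 in wild type after PMSG. The hCG arrays lay above the arrays with PMSG alone in both genotypes, and replicate 3 of wild type after hCG was the highest array. The rise in wild type was 2.27 ± 0.557 (SE, n = 3 each, 4.82-fold, adjusted p = 0.0329), a call lost under 12 of the 23 alternatives and 1.72 without replicate 3 after hCG. In the knockout the value was 1.57 and not called (adjusted p = 0.427). The second probe set (1458268_s_at) gave 1.07 in wild type and 0.58 in the knockout, neither called, and no genotype difference of either probe set was called.

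Igfbp6, whose product prefers IGF2, had 1 probe set (1417933_at) and no call. It had -0.31, 0.91 and 0.53 in the knockout after hCG, -0.30, 0.09 and 0.23 in wild type after hCG, -0.38, 0.56 and 0.63 in the knockout after PMSG, and -0.09, -0.62 and -0.35 in wild type after PMSG. The groups overlapped in the 4 comparisons, and replicate 1 was the lowest knockout array in both treatments.

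**Figure D2:**
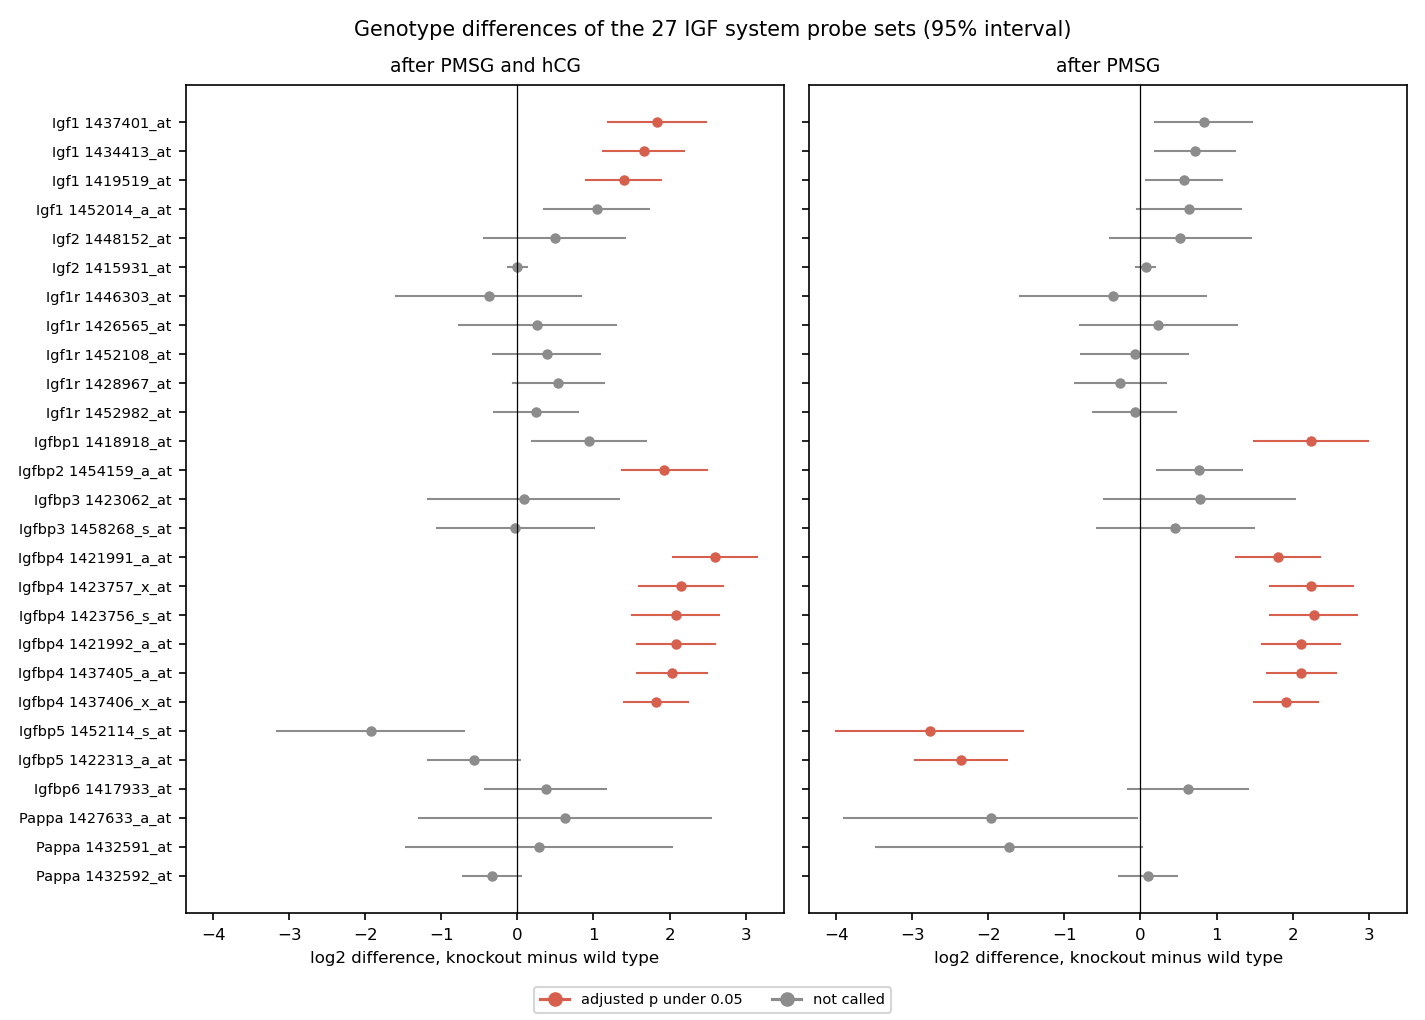
Log2 difference between knockout and wild type (x axis) for the 27 IGF system probe sets (y axis), after PMSG and hCG on the left and after PMSG alone on the right. Points are limma estimates, lines 95% intervals, and red marks an adjusted p under 0.05. The 6 Igfbp4 probe sets lie between 1.81 and 2.59 in both panels, Igfbp5 lies below 0, and Igfbp2 and 3 of the 4 Igf1 probe sets are red on the left and not on the right.

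Promoter sequences of the binding protein genes that differed after PMSG alone, Igfbp1, Igfbp4 and Igfbp5, are shown as the 250 bases before the annotated start. They were taken from RefSeq on GRCm38.p6, which held windows for 9 of the 10 genes (13 windows), Pappa being the exception. Igfbp1 lies at chr11:7197537-7197786 on the plus strand, Igfbp4 at chr11:99040994-99041243 on the plus strand and Igfbp5 at chr1:72874866-72875115 on the minus strand, and each is written 5′ to 3′ on the strand of its gene. Capitals mark the matches found among 5 motifs searched on both strands.
Igfbp1: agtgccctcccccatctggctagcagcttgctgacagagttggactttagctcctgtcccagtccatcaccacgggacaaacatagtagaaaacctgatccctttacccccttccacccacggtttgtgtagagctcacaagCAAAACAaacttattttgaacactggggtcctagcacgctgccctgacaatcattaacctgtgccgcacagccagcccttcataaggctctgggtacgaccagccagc
Igfbp4: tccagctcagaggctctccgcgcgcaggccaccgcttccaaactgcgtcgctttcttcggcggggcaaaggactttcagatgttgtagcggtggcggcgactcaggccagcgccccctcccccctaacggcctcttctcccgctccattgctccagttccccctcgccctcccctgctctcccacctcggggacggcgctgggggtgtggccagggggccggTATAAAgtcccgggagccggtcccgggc
Igfbp5: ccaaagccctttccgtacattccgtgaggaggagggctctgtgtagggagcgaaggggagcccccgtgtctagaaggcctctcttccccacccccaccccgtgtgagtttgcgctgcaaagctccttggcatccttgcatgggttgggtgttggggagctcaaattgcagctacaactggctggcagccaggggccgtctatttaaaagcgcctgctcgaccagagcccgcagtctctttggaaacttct

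In Igfbp1 the capitals mark CAAAACA, a forkhead motif of insulin response elements, at 108 to 102 bases before the start, which 5.56% of all 32851 windows of this length hold. In Igfbp4 they mark the TATA box motif TATAAA at 28 to 23 bases before the start, which 12.4% of all windows hold. The other motifs searched were the forkhead consensus GTAAACA (3.17% of windows), the NR5A motif AAGGTCA (4.08%) and the cyclic AMP response element TGACGTCA (1.55%). Among the other windows, Igf1r held AAGGTCA and Igfbp6 held TATAAA, both on the opposite strand. Igfbp5 held none of the 5. A match describes letters in the window and not a site in use. The GC content was 53.2% for Igfbp1, 69.2% for Igfbp4 and 58.8% for Igfbp5, against a median of 52.4% over all windows. Igfbp1 and Igfbp3 are neighbours among the protein-coding genes of chromosome 11, as are Igfbp2 and Igfbp5 on chromosome 1, and within each pair the genes were called in different comparisons.

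The comparison of hCG with PMSG alone asks how the ovulatory stimulus changes these genes within a genotype. In the knockout 1 probe set rose, 1 fell and 25 were not called (7.41% called, against 1.01% of all probe sets, 0.93% higher and 0.0799% lower). In wild type 1 rose, 3 fell and 23 were not called (14.8% called, against 9.76% of all probe sets, 5.1% higher and 4.66% lower). On the most variable probe set of each gene, 1 rose, 1 fell and 8 were not called in the knockout (1.4% of all genes called). In wild type 1 rose, 0 fell and 9 were not called on these (12.6% of all genes called), a share near that of all genes. In wild type the split became 4 higher and 1 lower after quantile normalization, with 3 Igfbp4 probe sets called higher and both Igf1 calls lost. The genotype and hCG comparisons share arrays and are not independent of each other. The arrays of the 2 treatments did not overlap for 11 of the 27 probe sets in the knockout (9.22% of all probe sets) and for 17 in wild type (25.1%).

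Pappa, the protease that releases IGF from IGFBP4, had the widest hCG response of the set in the knockout. The values of 1427633_a_at were 1.52, 1.37 and 0.67 in the knockout after hCG, 0.03, 0.52 and 1.12 in wild type after hCG, -3.96, -3.09 and -3.02 in the knockout after PMSG, and -3.77, -0.03 and -0.36 in wild type after PMSG. The knockout arrays after PMSG were low together, and replicate 1 of wild type after PMSG was as low as they were while its other 2 arrays were not. In the knockout Pappa rose by 4.54 ± 0.854 with hCG (SE, n = 3 each, 23.3-fold, adjusted p = 0.0446). The call was lost under 18 of 23 alternatives, although the value stayed between 4.24 and 4.80 when any 1 array was left out. It was 5.04 between the early arrays (1 against 2) and 4.04 between the late ones (2 against 1).

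In wild type the hCG response of this Pappa probe set was 1.95 and not called (adjusted p = 0.236), and the difference of the responses was 2.60 ± 1.21 (SE, adjusted p = 0.573). The genotype difference after PMSG was -1.97 and not called (adjusted p = 0.373). Replicate 1 of wild type decides these values: without it the genotype difference after PMSG was -3.16 and called (adjusted p = 0.0116), the hCG response in wild type was 0.76, and the difference of the responses was 3.79 and called (adjusted p = 0.0262). That array and replicate 1 of the knockout after PMSG share a number in their names, and within this pair the difference was -0.19, against -3.06 in the pair of replicates 2. The second probe set (1432591_at) gave 3.77 with hCG in the knockout and was not called (adjusted p = 0.0698). Between genotypes after PMSG it was at -1.73 and not called (adjusted p = 0.398). Within the pairs of replicates 1 and 2 that difference was 1.2 and -3.8. The third (1432592_at) was called nowhere, with differences between -0.33 and 0.46 in the comparisons of 2 groups. After hCG the genotypes overlapped on the first probe set, 1427633_a_at, at 0.63 and not called.

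**Figure D3:**
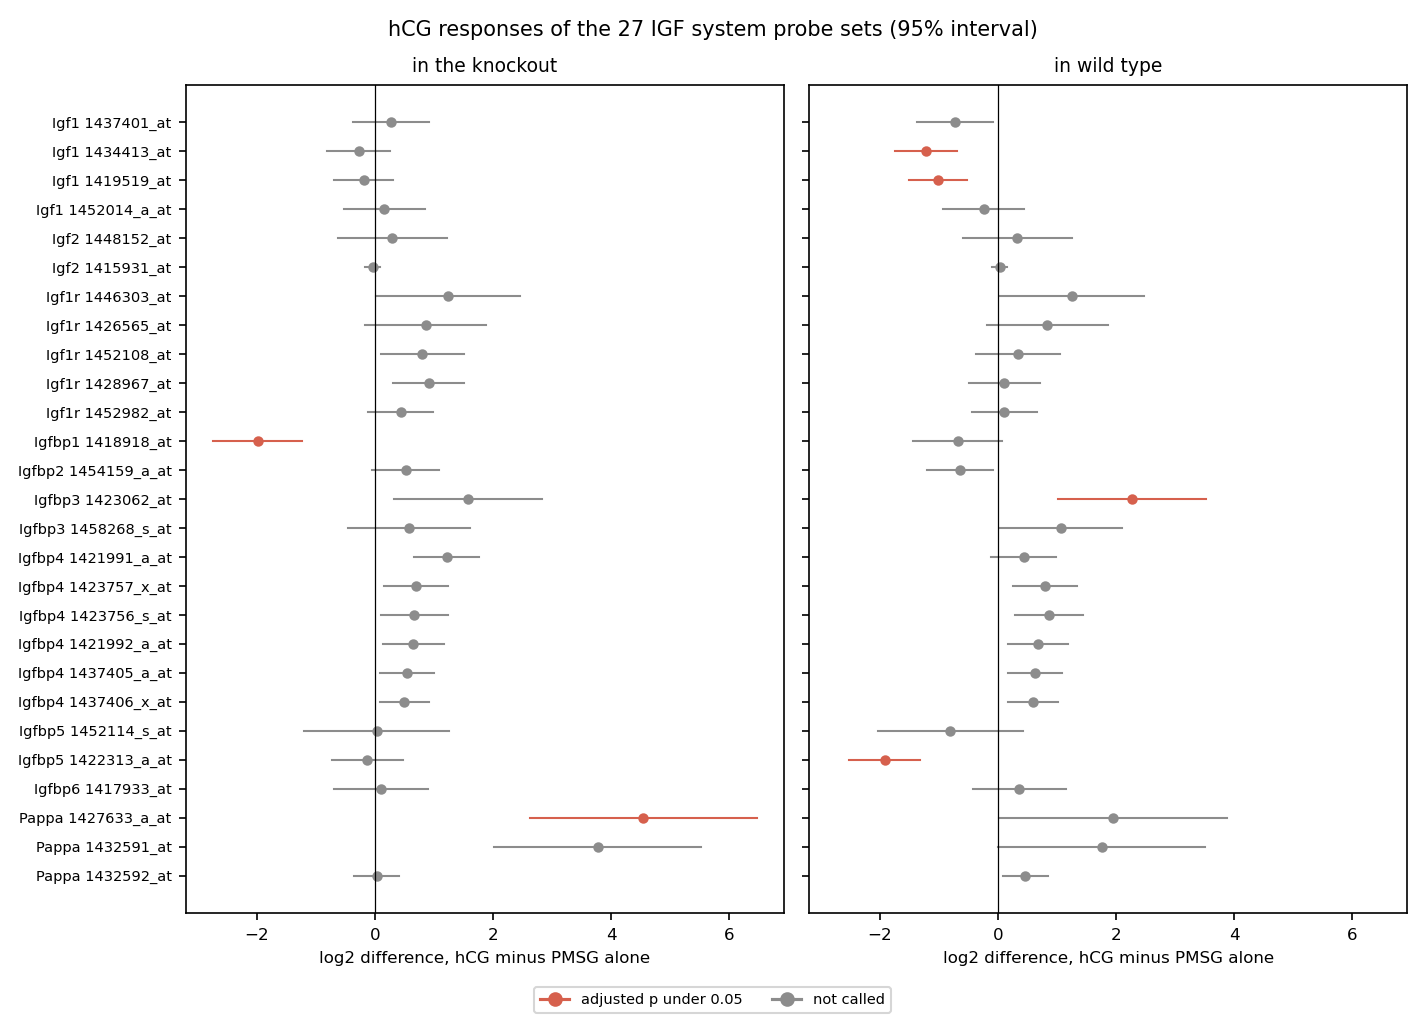
Log2 difference between PMSG with hCG and PMSG alone (x axis) for the 27 IGF system probe sets (y axis), in the knockout on the left and in wild type on the right. Points are limma estimates, lines 95% intervals, and red marks an adjusted p under 0.05. Pappa 1427633_a_at at 4.54 and Igfbp1 at -1.99 are red in the knockout, and Igfbp3 1423062_at at 2.27, Igfbp5 1422313_a_at at -1.91 and the Igf1 probe sets 1434413_at and 1419519_at are red in wild type.

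Whether the hCG response differed between the genotypes was tested as the interaction, the response in the knockout minus the response in wild type. By limma 0 of the 27 probe sets were called (0.759% of all probe sets were, 0.147% higher and 0.613% lower), and 7 had an unadjusted p under 0.05. The share of all probe sets under this unadjusted threshold was not counted, so the 7 are listed as a description only. The 7 were the 3 Igf1 probe sets called after hCG, Igfbp1, Igfbp2, Igfbp4 1421991_a_at and Igfbp5 1422313_a_at, the last with the smallest adjusted p of the set (0.0813). For Igfbp4 the interaction was 0.78 on 1421991_a_at and between -0.20 and -0.03 on its other probe sets.

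Other genes of IGF and insulin signalling were taken from a list of 36 genes, of which 30 were measured, on the largest-SD probe set of each. Between the genotypes 3 were higher, 1 lower and 26 not called after hCG (13.3% called, against 12.6% of the largest-SD probe sets of all 18193 genes). After PMSG 1 was higher, 3 lower and 26 not called (13.3%, against 2.96%). With hCG 0 rose, 1 fell and 29 were not called in the knockout (3.33%, against 1.4%), and 3 rose, 4 fell and 23 were not called in wild type (23.3%, against 12.6%). The share after hCG between genotypes is near that of all genes. Igf2r, the receptor that takes IGF2 into the cell for degradation, had 0.03, -0.08 and -0.03 in the knockout after hCG, -1.26, -1.68 and -1.67 in wild type after hCG, 0.08, 0.23 and -0.31 in the knockout after PMSG, and 0.37, 0.34 and 0.26 in wild type after PMSG. The 3 wild-type arrays after hCG stood below the other 9. Igf2r fell by 1.86 ± 0.147 with hCG in wild type (SE, adjusted p = 9.18e-05), was 1.51 higher in the knockout after hCG (adjusted p = 0.000428), and was the 1 gene of the 30 called for a difference in hCG response between genotypes (1.83 ± 0.208, SE, adjusted p = 0.00556; 0.995% of the largest-SD probe sets of all genes were called). The granulosa markers moved the same way, with 7 of 9 lower with hCG in wild type (median -1.78) and a median interaction of 1.56, and their part in the Igf2r values was not tested. The other Igf2r probe set gave 1.10 for the difference in hCG response and was not called. It was called with hCG in wild type (-1.255) and between genotypes after hCG (0.87).

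Downstream of the receptor, Pik3r1, the regulatory subunit of phosphatidylinositol 3-kinase, was lower in the knockout after PMSG (-4.39 ± 0.483, SE, adjusted p = 0.00288), and 2 of its other 3 probe sets were called too. After hCG this Pik3r1 probe set was at -1.65 and not called (adjusted p = 0.0646), with no overlap of the genotypes, while all 3 others were called lower, at -1.75 to -1.56. Grb14, an adaptor that restrains insulin receptor signalling, was lower in the knockout after PMSG (-2.06, adjusted p = 0.00424) and after hCG (-2.37, adjusted p = 0.000586), with its other probe set at -0.92 and -0.25, not called. It fell with hCG in the knockout by 1.33 (adjusted p = 0.0423) and in wild type by 1.01 (adjusted p = 0.0314), calls lost under 15 and 9 of 23 alternatives. With hCG the other Grb14 probe set was at -0.40 and not called in the knockout, and at -1.07 and called in wild type. Insr, the insulin receptor, was lower in the knockout after PMSG (-0.89, adjusted p = 0.0247, a call lost under 8 of 23 alternatives), while its other 2 probe sets gave 0.02. Htra1, a serine protease that can cleave IGF-binding proteins, was higher in the knockout after hCG (0.89) and after PMSG (1.16), also on its other probe set (0.9995 and 1.09).

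With hCG in wild type Foxo1, a forkhead factor that AKT keeps out of the nucleus, fell by 2.02 (adjusted p = 0.00655) and Irs1, an insulin receptor substrate, fell by 2.12 (adjusted p = 0.00802). Stc1, whose product stanniocalcin inhibits PAPP-A, rose by 2.20 on 1 of its 2 probe sets (adjusted p = 0.0104), and the other was at 0.03. Pdpk1 rose by 1.41 (adjusted p = 0.0271) and Pik3ca by 0.68 (adjusted p = 0.0373), calls lost under 8 and 13 of 23 alternatives. The other Pdpk1 probe set was at 0.13 and the 5 others of Pik3ca at -0.18 to 0.34, none called. Foxo1 was 1.40 higher in the knockout after hCG (adjusted p = 0.0312), a call lost under 10 of 24 alternatives. Its other 3 probe sets gave 0.0058 to 1.18 for this difference, with 0 called. With hCG in wild type they gave -1.86 to -0.0046, with 2 called.

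**Figure D4:**
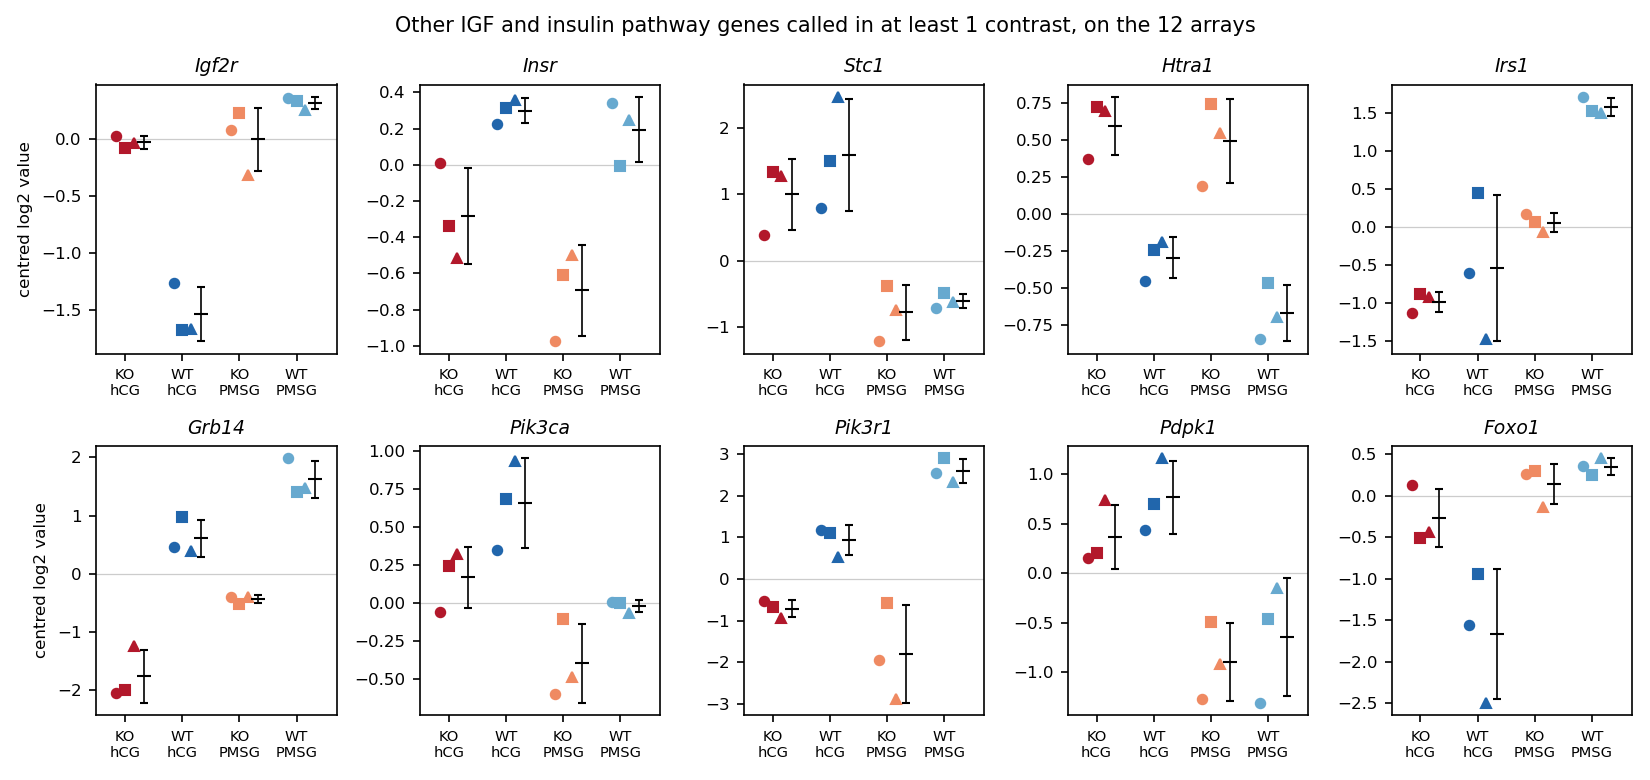
Centred log2 value (y axis) of the other IGF and insulin pathway genes called in at least 1 comparison, on each of the 12 arrays by group (x axis: knockout and wild type after hCG, knockout and wild type after PMSG). Circles, squares and triangles are replicates 1, 2 and 3, and the black bar is the group mean ± SD. Igf2r lies between -1.68 and -1.26 on the wild-type arrays after hCG and between -0.31 and 0.37 on the others.

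For the 4 genes with the largest SD, the genes whose values followed theirs most closely were named by Pearson's r over the 12 arrays, as a description; the arrays share groups, so that any gene with the same group differences ranks high. For Pappa they were Ptgfr (r = 0.928), Alas1 (0.913) and Gsk3b (0.907). For Igfbp5 they were Pkp2 (0.957), Ccn2 (0.948) and Ghr (0.948), and for Igfbp4 they were Lbr (0.953), Emilin2 (0.949) and Hoxd10 (0.947). For Igfbp3 they were Sqle (0.959), Wipf1 (0.953) and Serpinb9 (0.929). Among the probe sets of 1 gene, r ran from 0.939 to 0.999 for Igfbp4, 0.782 to 0.965 for Igf1, 0.452 to 0.875 for Igf1r and 0.402 to 0.942 for Pappa, and was 0.276 for Igf2.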

How the data were processed

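Granulosa cell RNA was hybridised to 12 single-colour Affymetrix arrays, 3 in each of 4 groups of genotype and treatment, which the titles and characteristics give. The authors deposited log2 values made with GCRMA, per the submitters' processing notes; its version is not given in the sources used here. All probe sets were found centred on their own median, which the labels do not mention, and no further scaling was applied. The base of the logarithm was read from the range: some probe set spans 13.3 units, more than the 11.1 natural logarithm units within reach of a 16-bit scanner. Medians of arrays lay between -0.0197 and 0.0929. The table held 0 columns of other samples, and raw scans were not analysed here. GCRMA models background, so low values vary little and folds of weakly expressed genes may not be ratios of measured levels. The number of arrays limits the precision.

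Probe sets were named from the platform annotation, and 34945 of those tested name a single gene. A group-means model was fitted with limma 3.58.1 in R 4.3.3, without a filter, to 45037 probe sets, with moderated variances, with Benjamini-Hochberg adjustment of p-values over all of them in each of 5 contrasts. With 3 arrays against 3 an exact permutation test cannot go below p = 0.1, so none is given for single values. The text names every IGF system probe set, Inha, and up to 4 genes of the pathway list a contrast with the smallest adjusted p. Further genes of that list, Grb14, Pdpk1 and Pik3ca with hCG in wild type, were chosen after their values were seen. The 3 genes most like each of the 4 most variable members are named as well. Members, lists and alternatives were chosen with earlier results of these data known. 1 alternative, the late serial numbers only, was added after seeing the data. Same-numbered replicates were checked for pairing: their deviations from the group means correlated with r of 0.189, 0.247 and 0.0954 after PMSG and 0.198, -0.0423 and 0.0105 after hCG between genotypes, and the replicate numbers were not treated as pairs. A further number in the array names, shared by some arrays, had a consensus correlation of 0.618 and was run as a random block. The code was tested on simulated data.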

Additional observations from a re-analysis of the deposited data

Results flagged for a closer look

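The hCG response of Igf2r differed between the genotypes by the interaction term of limma, at 1.834 ± 0.208 on the log2 scale (SE, adjusted p = 0.00556). The response itself was -0.03 in knockout cells, against -1.86 in wild type. The 3 wild-type arrays after hCG were all lower than the 9 others. The second Igf2r probe set gave 1.10 for the interaction and was not called, but was called lower with hCG in wild type (-1.255). Without any 1 array the interaction of the first probe set ran from 1.68 to 1.97. Of the 9 granulosa markers, 7 were lower with hCG in wild type, and their median lay between -0.11 and 0.0017 on the knockout arrays after hCG, against -1.67 and -0.85 on the wild-type arrays. Their part in the Igf2r difference was not tested.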

How the results depend on the processing

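Of 9 called values on the largest-SD probe sets, 210 recomputations under other settings gave 150 that kept direction and call, 60 that kept direction and lost the call, and 0 that turned sign. Of 940 recomputations of values not called, 27 became called. Counts of the 27 probe sets called moved as follows. Where a count is 0, the number at an unadjusted p under 0.05 follows, as a description, since its share over all probe sets was not counted. Between genotypes after PMSG (9) the count was 3 with 1 probe set a gene and 1 with early serial numbers only, and 8 to 10 with any 1 array left out. After hCG (10) it was 4 with 1 probe set a gene, 0 with early serial numbers only (13) and 0 with late ones only (13), and 10 to 12 with 1 array left out. For hCG in the knockout (2) it was 1 with array medians subtracted, 4 with the upper 60% by SD, 1 with robust moderation, 0 with array weights (12), 0 with serial number as a covariate (11), 1 with early serial numbers only, 0 with the name number as a random block (9), and 0 to 3 with 1 array left out, being 0 without replicate 1 (6) or 3 (11) of the knockout after PMSG, replicate 3 of wild type after PMSG (12), or replicate 2 (5) or 3 (11) of the knockout after hCG. For hCG in wild type (4) it was 1 with 1 probe set a gene, 11 with array weights, 0 with early serial numbers only (7), 1 with the random block, and 1 to 10 with 1 array left out: 10 without replicate 1 of the knockout after PMSG, 1 without replicate 3 of wild type after hCG, and 2 without replicate 1 or 3 of wild type after PMSG or replicate 1 of wild type after hCG. For the interaction (0) it was 1 after quantile normalization (Igfbp1) and 1 with the upper 60% by SD (Igfbp5 1422313_a_at), and 0 to 1 with 1 array left out. With the replicate number as a block, a number that does not pair the samples, the counts were 9, 11, 0 (14), 5 and 0 (7) in the order above. The cause of these moves was not tested, except that early or late numbers only and 1 probe set a gene leave fewer arrays or probe sets.

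Over all 45037 probe sets the calls ran from 138 to 2880 (1016 as reported) between genotypes after PMSG, 1211 to 7048 (4541) after hCG, 187 to 569 (455) for hCG in the knockout, 1725 to 7735 (4396) for hCG in wild type and 151 to 836 (342) for the interaction. The 569 is an exception, since it came from the fit on only the 27022 probe sets in the upper 60% by SD. With early serial numbers only, each hCG group holds 1 array, assumed to vary like the others. Array weights were estimated on the upper 60% by SD, since on all probe sets they did not converge, and ran from 0.332 to 4.35. Igfbp1 and Igfbp4 after PMSG and Igf1, Igfbp2 and Igfbp4 after hCG kept their call with any 1 array left out. The call of Igfbp5 1452114_s_at after PMSG was lost in 8 of 12 such fits (-3.14 to -2.15), that of Igfbp1 with hCG in the knockout in 8, that of Pappa in 10 and that of Igfbp3 with hCG in wild type in 7 (1.72 to 2.68).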
